A study of Homo sapiens with 6 samples.

Results

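The genes described here are the 10 members of the MHC class II pathway named HLA-DRA, HLA-DPA1, HLA-DPB1, HLA-DQA1, HLA-DMA, HLA-DMB, HLA-DOA, HLA-DOB, CD74 and CIITA, measured in P493-6 cells. They were chosen by symbol, and 49 of the 49293 human probe sets of the array mapped to 1 of them alone. A probe set is a group of short DNA probes that together read the RNA of 1 gene. The probe set that averaged highest over the 6 arrays stood for each gene, and the remaining 39 probe sets served as a check. All 10 genes passed the filter on dim signal, as did 45 of the 49 probe sets, and 4 did not.

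P493-6 is a human B cell line, called a B-cell lymphoma by the labels, in which tetracycline holds a c-Myc transgene off. The line is known to descend from B cells immortalised with Epstein-Barr virus and to carry a conditional EBNA2 (state not given in the sources used here). There were 3 groups of 2 arrays, all of the same line: low-Myc with 0 hours of transgene release, mid-Myc with 1 hour and high-Myc with 24 hours. Each pair is a biological duplicate according to the design text. One protocol field gives 0 hours for mid-Myc and another gives 1 hour, which was used. The mid-Myc sample numbers do not follow on from the others, so a separate batch cannot be told apart from the change at 1 hour. Synthetic ERCC RNAs were added by cell number, per the labels' protocols.

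MHC class II molecules carry peptides from swallowed and membrane proteins to the cell surface, where CD4+ T cells read them, and B cells make them at all times. Their alpha and beta chains assemble in the endoplasmic reticulum with the invariant chain, CD74, which fills the peptide groove until it is cut away in lysosomes. HLA-DM then exchanges the last fragment of CD74 for a peptide, and HLA-DO, made mainly in B cells, restrains HLA-DM. CIITA is the switch of the whole set. It does not bind DNA by itself but docks on the RFX, CREB and NF-Y proteins that sit on S, X and Y boxes, elements known from the promoters of class II chains and CD74, and it recruits the chromatin and transcription machinery.

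Promoter stretches are shown here because CIITA is known to act through such boxes. Promoter windows came from RefSeq on build GRCh38.p14, reach 250 bases before to 50 bases after the start of each gene, and were found for 8 of the 10 genes, in 9 windows. HLA-DRA and CIITA had no entry. They were searched on both strands for an X-like pattern, CCNAG then any 3 bases then CNGAT, and for the Y box GATTGG, which reads CCAATC on the opposite strand. The last 3 letters of the X-like pattern can overlap the first 3 of a Y box. The stretch printed for each gene reaches 150 to 11 bases before the gene start on the gene's own strand, with matches in capitals. The HLA-DMA stretch lies at chr6:32953108-32953247 (minus strand), HLA-DOA at chr6:33009602-33009741 (minus), HLA-DOB at chr6:32817013-32817152 (minus), HLA-DMB at chr6:32941039-32941178 (minus) and HLA-DPB1 at chr6:33075840-33075979 (plus).
HLA-DMA: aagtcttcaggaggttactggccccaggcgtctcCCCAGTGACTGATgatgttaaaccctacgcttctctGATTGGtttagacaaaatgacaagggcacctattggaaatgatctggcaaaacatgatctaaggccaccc
HLA-DOA: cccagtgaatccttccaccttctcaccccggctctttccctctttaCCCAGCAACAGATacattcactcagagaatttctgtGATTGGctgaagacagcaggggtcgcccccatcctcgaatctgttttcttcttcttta
HLA-DOB: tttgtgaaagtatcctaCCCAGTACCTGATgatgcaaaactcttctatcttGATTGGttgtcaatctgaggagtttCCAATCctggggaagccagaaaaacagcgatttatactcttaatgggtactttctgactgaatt
HLA-DMB: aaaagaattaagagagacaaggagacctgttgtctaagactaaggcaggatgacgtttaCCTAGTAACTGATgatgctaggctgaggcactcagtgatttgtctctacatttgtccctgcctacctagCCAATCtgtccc
HLA-DPB1: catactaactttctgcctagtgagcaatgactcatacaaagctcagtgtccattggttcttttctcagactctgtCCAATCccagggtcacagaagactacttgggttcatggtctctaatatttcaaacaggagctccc
The X-like pattern was found for 4 of the 8 genes with a window, HLA-DMA, HLA-DMB, HLA-DOA and HLA-DOB, against 0.906% of all 35116 windows (318). The Y box was found for those 4 and HLA-DPB1, against 15.1% of all windows (5314). HLA-DMA, HLA-DOA and HLA-DOB held an X-like match 36, 36 and 34 bases before a Y box on the same strand. Only 6 windows of the 35116 (0.0171%) held such a pair at 30 to 40 bases, which were those 3, HLA-DQB1, HLA-DQB2 and LINC02520, a long non-coding RNA gene on the same chromosome. HLA-DQA1, CD74 and HLA-DPA1 had no match to either spelling in their windows. The spellings and the spacing were chosen after the members' windows had been read, so these counts describe the windows and test nothing.

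The 10 genes were read in every array at levels far above the filter (33.8 intensity units), and the replicates lay close together. HLA-DRA, the invariant alpha chain of HLA-DR, had deposited intensities of 13375 and 13797 in low-Myc arrays, 14566 and 14015 in mid-Myc arrays and 10693 and 10971 in high-Myc arrays. HLA-DPA1, the alpha chain of HLA-DP, had 14424 and 14439.9 in low-Myc, 15537 and 15081 in mid-Myc and 10927 and 10643 in high-Myc arrays. Both high-Myc arrays were below every other array for these chains, and both mid-Myc arrays were above every other array. HLA-DPB1, the beta chain of HLA-DP, had 8139 and 7901 in low-Myc, 9023 and 8814 in mid-Myc and 4863 and 4705 in high-Myc arrays. HLA-DQA1, the alpha chain of HLA-DQ, had 6346 and 6408 in low-Myc, 6986 and 6869 in mid-Myc and 4024 and 4016 in high-Myc arrays. The order was again mid-Myc, low-Myc, high-Myc with no overlap, and both 24-hour arrays were far below the rest. Lack of overlap was common among all genes. With arrays set to equal medians it held for 79.9% of them in high-Myc against low-Myc arrays. It held for 64.4% in mid-Myc against low-Myc and 79.6% in high-Myc against mid-Myc arrays. The share was not computed for deposited intensities.

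The peptide exchange factors showed the same order. HLA-DMA had 1771 and 1659.95 in low-Myc, 2027 and 1944 in mid-Myc and 919 and 979 in high-Myc arrays. HLA-DMB, its partner chain, had 4134 and 4172 in low-Myc, 4616 and 4738 in mid-Myc and 2052 and 2115 in high-Myc arrays. For both HLA-DM chains the high-Myc arrays were lowest and the mid-Myc arrays highest. HLA-DOA had 1389 and 1344 in low-Myc, 1469 and 1487 in mid-Myc and 639 and 649 in high-Myc arrays. HLA-DOB had 421 and 407 in low-Myc, 474 and 452 in mid-Myc and 185 and 200.3 in high-Myc arrays. Both chains of HLA-DO, the brake on HLA-DM, were lowest in high-Myc arrays. CD74, the invariant chain, had 4997 and 4836 in low-Myc, 5722 and 5598 in mid-Myc and 3142 and 3196 in high-Myc arrays.

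CIITA, the co-activator, was the exception at 1 hour. Its deposited intensities were 510.4 and 520.4 in low-Myc, 473 and 450.1 in mid-Myc and 260.3 and 241 in high-Myc arrays. Among the 10 genes it alone was lower in both mid-Myc arrays than in both low-Myc arrays as deposited. The plot of deposited intensities shows all 10 genes.

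**Figure D1:**
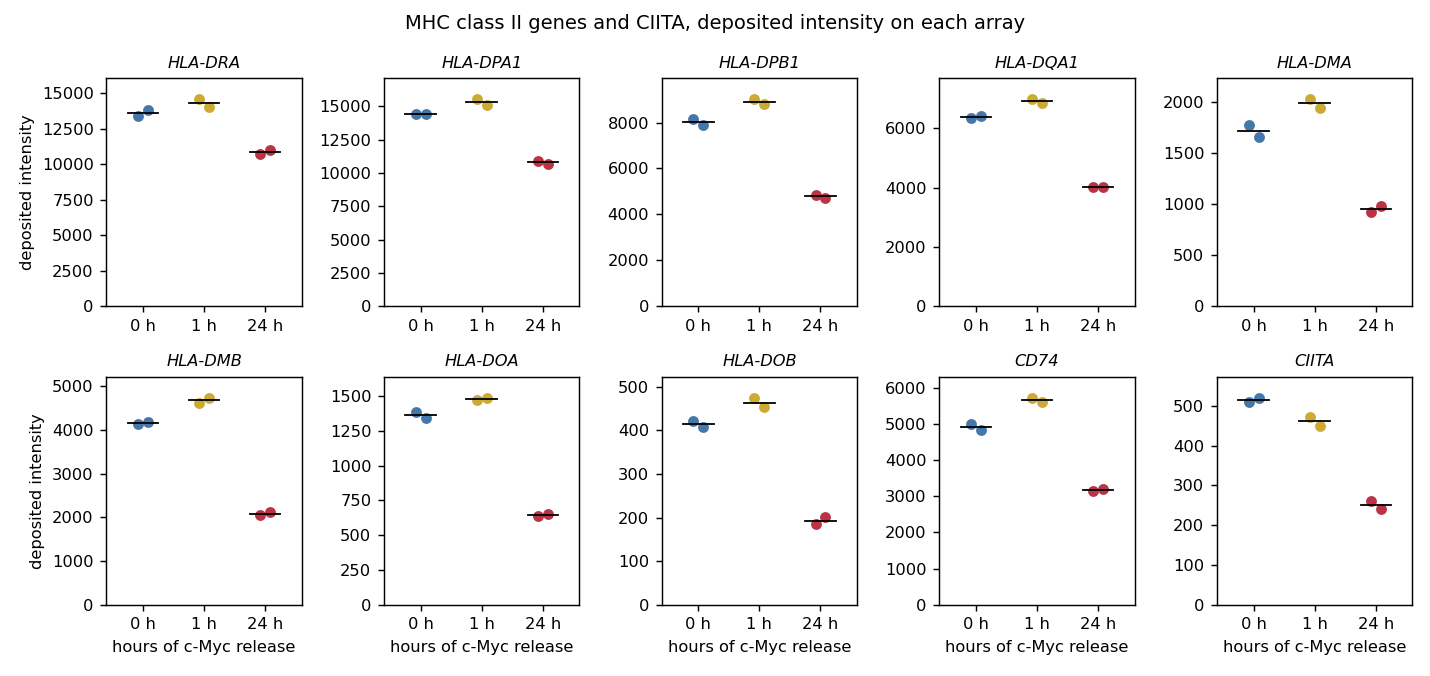
Deposited intensity (linear, y axis from 0) of the probe set used for each of the 10 genes at 0 hours (low-Myc), 1 hour (mid-Myc) and 24 hours (high-Myc) of c-Myc release. Points are the 2 arrays of a group and the line is their mean. The high-Myc arrays are lowest for every gene, and CIITA alone has its mid-Myc arrays below its low-Myc arrays.

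These intensities depend on how arrays are scaled, which is the question that the title and design of the series raise, so each comparison was made on 2 scales. The equal-median scale sets the median human probe set of every array to the same level and so takes total RNA as equal. The per-cell scale subtracts from each array a smooth curve through its ERCC probe sets, so that a difference refers to cell number. In bulk RNA, fewer cells that express a gene and less of its RNA per cell cannot be told apart. Levels of different probe sets are not compared with each other. All differences are in log2, from 1 limma fit over the 6 arrays, with p-values adjusted by Benjamini and Hochberg over the 12198 genes tested and a threshold of 0.05. These p-values rest on the spread between 2 arrays of a group and on a spread borrowed from all genes. With 2 arrays against 2, the smallest p of an exact permutation test is 0.333.

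As facts of the whole series, replicates correlated at 0.996 across genes and array medians lay between 44.5 and 50.2 intensity units. MYC, the gene of the transgene, read 10472 and 10279 in low-Myc, 10031 and 9941 in mid-Myc and 11888 and 11979 in high-Myc arrays. Against low-Myc arrays, its per-cell difference was 0.96 in high-Myc and 0.13 in mid-Myc arrays, and its equal-median difference 0.34 and 0.095, all called higher. The medians of all genes were 0.98 and 0.30 per cell and 0.05 and 0.09 on the equal-median scale. Of all genes 91.0% and 62.7% were higher per cell, and 37.7% and 25.7% on the equal-median scale. MYC read far above 3384 intensity units, where the brightest 1% of human probe sets begin and signal can be compressed. Its mid-Myc arrays were below its low-Myc arrays as deposited, so MYC does not settle the mid-Myc label. Whether its probe set reads the transgene was not given. Of 11 B cell markers with a probe set, CR2 and BANK1 were below the filter, and the summed intensity of the 11 was 20893 to 20940.1 in low-Myc, 21328 to 22076 in mid-Myc and 13164 to 13366 in high-Myc arrays. MS4A1, the brightest of them at a mean of 11519 intensity units, weighs most in that sum.

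At 24 hours, on the equal-median scale, all 10 genes read lower in the high-Myc arrays than in the low-Myc ones, and the groups overlapped for none of them. In this comparison 26.0% of all genes tested were lower and 37.7% higher, and 79.9% had arrays that did not overlap. The median of the 10 genes was -0.66, against a median of 0.05 for all genes. The falls ran from 0.97 for HLA-DOB to 0.19 for HLA-DRA, and the highest adjusted p was 9.83e-05. The HLA-DO chains were farthest from 0, HLA-DOB falling by 0.97 (SE 0.07, a 1.95-fold lower level) and HLA-DOA by 0.95 (SE 0.05, 1.93-fold lower). CIITA fell by 0.90 (SE 0.06, 1.87-fold lower, adjusted p = 2.04e-08). Among the HLA-DM chains, HLA-DMB fell by 0.86 (SE 0.04, 1.81-fold lower) and HLA-DMA by 0.71 (SE 0.06, 1.64-fold lower).

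The values of the peptide-presenting chains and of CD74 were nearer to 0. HLA-DPB1 fell by 0.61 (SE 0.03, 1.52-fold lower), HLA-DQA1 by 0.53 (SE 0.03) and CD74 by 0.49 (SE 0.04). HLA-DPA1 fell by 0.28 (SE 0.03) and HLA-DRA by 0.19 (SE 0.03, 1.14-fold lower). The probe sets of HLA-DRA and HLA-DPA1 are also those farthest into the bright end of the array, and differences between members were not tested. All 10 genes were also lower with arrays quantile-normalized, left as deposited, centred on the tested genes or fitted with cyclic loess, although the share of genes lower than in low-Myc was then 34.2%, 35.3%, 40.4% and 30.9% (higher in 30.7%, 31.1%, 28.7% and 33.2%).

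On the per-cell scale, the same 24-hour comparison had the opposite sign for nearly all of the genes. Here 9 of the 10 were higher in high-Myc arrays and none was lower, against 91.0% of all genes higher and 2.47% lower. The share of members is thus close to that of all genes, but their size was not: the median was 0.23 against 0.98 for all genes, and 10 of 10 lay below the median of all genes. HLA-DRA was higher by 0.40 (SE 0.03, adjusted p = 5.04e-07), HLA-DMA by 0.31 (SE 0.05), CD74 by 0.30 (SE 0.03) and HLA-DPA1 by 0.29 (SE 0.03). CIITA was higher by 0.24 (SE 0.06, adjusted p = 0.00294) and HLA-DQA1 by 0.23 (SE 0.03). HLA-DOB was higher by 0.17 (SE 0.06), HLA-DOA by 0.14 (SE 0.04) and HLA-DPB1 by 0.10 (SE 0.03). With the mean of all probe sets of a gene, HLA-DRA (0.046, adjusted p = 0.352), HLA-DOA (0.088, adjusted p = 0.155) and HLA-DOB (0.055, adjusted p = 0.424) were not called, and HLA-DPB1 was not called with a curve of span 0.4 (0.013, adjusted p = 0.708).

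HLA-DMB was the gene not called, at -0.01 (SE 0.03, adjusted p = 0.716, 95% interval -0.089 to 0.063). Relative to their low-Myc mean its high-Myc arrays were at -0.041 and 0.015. With each of the 6 arrays left out in turn, 7 to 9 genes were higher, the fewest without low-Myc replicate 2, when HLA-DPB1 (0.068, adjusted p = 0.120) and HLA-DOB (0.18, adjusted p = 0.0581) were not called. HLA-DOB was also not called without high-Myc replicate 2 (0.10, adjusted p = 0.161) or low-Myc replicate 1 (0.18, adjusted p = 0.0561). The ERCC probe sets at the levels of HLA-DMA, HLA-DOA, HLA-DOB and CIITA kept a median of -0.14 (SD 0.23, 17 probe sets) after the curve, and those at the bright end 0.05 (SD 0.23, 14 probe sets). These residuals are as large as several of the members' differences, and their part in the per-cell values was not tested.

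**Figure D2:**
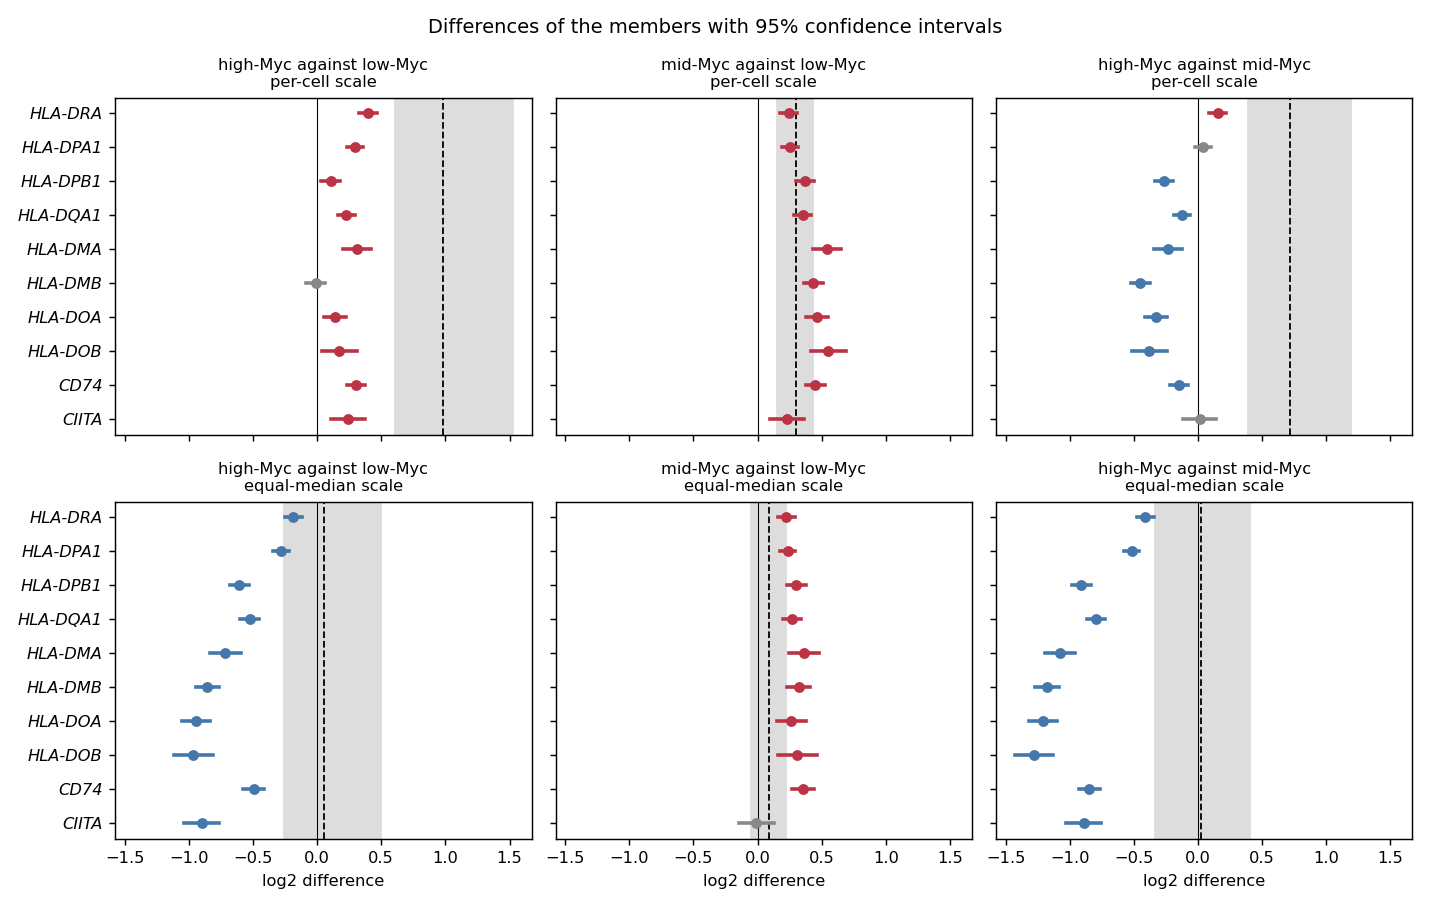
Log2 difference of each gene with its 95% confidence interval from the limma fit, in high-Myc against low-Myc, mid-Myc against low-Myc and high-Myc against mid-Myc arrays, on the per-cell scale (top) and the equal-median scale (bottom). Red marks genes higher at an adjusted p under 0.05, blue lower and grey not called. The dashed line is the median of all 12198 genes and the band spans their middle 50%. At 24 hours the 10 genes lie left of the dashed line on both scales, at a median of -0.66 on the equal-median scale and 0.23 per cell.

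At 1 hour, on the equal-median scale, 9 of the 10 genes were higher in mid-Myc than in low-Myc arrays and none was lower, against 25.7% of all genes higher and 3.39% lower. Their arrays did not overlap between the groups, which held for 64.4% of all genes. The median of the 10 was 0.29 against 0.09 for all genes. It was 0.23 for the 242 genes with a used probe set among the brightest 1% of human ones, as 6 of the 10 have. HLA-DMA was higher by 0.36 (SE 0.06, adjusted p = 0.000364), CD74 by 0.35 (SE 0.04) and HLA-DMB by 0.32 (SE 0.04). HLA-DOB was higher by 0.31 (SE 0.07), HLA-DPB1 by 0.30 (SE 0.03), HLA-DQA1 by 0.27 (SE 0.03) and HLA-DOA by 0.26 (SE 0.05). HLA-DPA1 was higher by 0.23 (SE 0.03) and HLA-DRA by 0.22 (SE 0.03). CIITA was not called, at -0.01 (SE 0.06, adjusted p = 0.930, 95% interval -0.15 to 0.13).

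The calls at 1 hour rested on the scaling. The count of genes higher was 1 with quantile normalization, 2 with cyclic loess and 5 in the values as deposited, and 9 when arrays were centred on the tested genes. The shares of all genes higher and lower were then 7.83% and 9.80%, 8.63% and 8.48%, 9.27% and 12.2%, and 12.5% and 8.83%. The median of all genes, 0.09 on the equal-median scale, was -0.022, -0.0098, -0.058 and -0.024 in the same order. Relative to it, 9 of the 10 genes lay above the median of all genes under each of these scalings except cyclic loess, where 7 did.

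On the per-cell scale all 10 genes were higher in mid-Myc than in low-Myc arrays, against 62.7% of all genes higher and 0.672% lower. Their median was 0.40 against 0.30 for all genes, and 7 of the 10 lay above that median. HLA-DOB was higher by 0.55 (SE 0.06) and HLA-DMA by 0.54 (SE 0.05), which makes them the members farthest from the median of all genes. CIITA (0.23, SE 0.06, adjusted p = 0.00706), HLA-DRA (0.24, SE 0.03) and HLA-DPA1 (0.25, SE 0.03) were the 3 below it. Without mid-Myc replicate 1, CIITA was not called (0.19, adjusted p = 0.055). With the mean of all probe sets, neither HLA-DRA (0.060, adjusted p = 0.294) nor CIITA (0.11, adjusted p = 0.284) was called.

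Between 1 and 24 hours the genes were lower again. On the equal-median scale all 10 were lower in high-Myc than in mid-Myc arrays, against 30.9% of all genes lower and 33.3% higher, with a median of -0.90 against 0.02 for all genes. HLA-DOB fell by 1.28, HLA-DOA by 1.21, HLA-DMB by 1.18 and HLA-DMA by 1.08. HLA-DPB1 fell by 0.91, CIITA by 0.89, CD74 by 0.85, HLA-DQA1 by 0.80, HLA-DPA1 by 0.52 and HLA-DRA by 0.41. The highest adjusted p of the 10 was 3.71e-08.

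Per cell, 7 of the 10 were lower in high-Myc than in mid-Myc arrays and 1 was higher, against 6.48% of all genes lower and 81.8% higher. The median of the members was -0.19 against 0.72 for all genes, and 10 of 10 lay below the median of all genes. HLA-DMB fell by 0.45 (SE 0.03), HLA-DOB by 0.38 (SE 0.06), HLA-DOA by 0.33 (SE 0.04), HLA-DPB1 by 0.26 (SE 0.03), HLA-DMA by 0.23 (SE 0.05), CD74 by 0.15 (SE 0.03) and HLA-DQA1 by 0.12 (SE 0.03). HLA-DRA was higher by 0.15 (SE 0.03, adjusted p = 0.000772). HLA-DPA1 (0.04, adjusted p = 0.164) and CIITA (0.01, adjusted p = 0.838) were not called. With 1 ERCC factor per array in place of the curve, 4 were lower and 3 higher, and with a curve of span 0.4 none was higher.

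The order of the 3 groups therefore differed by scale. On the equal-median scale it was mid-Myc, low-Myc, high-Myc, highest first, for all genes but CIITA, whose mid-Myc and low-Myc arrays did not differ beyond their spread. Per cell it was mid-Myc, high-Myc, low-Myc for HLA-DPB1, HLA-DQA1, HLA-DMA, HLA-DOA, HLA-DOB and CD74. There HLA-DMB had no call between high-Myc and low-Myc, HLA-DPA1 and CIITA had none between high-Myc and mid-Myc, and HLA-DRA was highest in high-Myc arrays.

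CIITA and the genes it switches on can be set against each other within an array, where a factor that is the same for all probe sets cancels. The difference between CIITA and the median of the 9 other genes, on the equal-median scale and relative to its low-Myc mean, was -0.037 and 0.037 in low-Myc arrays, -0.34 and -0.38 in mid-Myc arrays and -0.34 and -0.48 in high-Myc arrays. It was lower in all 4 released arrays than in either low-Myc array. The mid-Myc and high-Myc arrays overlapped. These values rest on the CIITA probe set used. The 2 dim further ones were at -0.32 and -0.23 in high-Myc against low-Myc arrays on this scale, where the members' median was -0.66. In mid-Myc against low-Myc arrays they were at 0.02 and -0.21, beside a median of 0.29. The difference refers to unequal change of probe sets of different brightness, and curves that bend with brightness do not cancel in it. The per-cell scale subtracts such a curve. Per cell, CIITA was at 0.24 in high-Myc against low-Myc arrays, beside a median of 0.23 for all 10 members, so it was not lower there. In mid-Myc against low-Myc arrays CIITA was at 0.23 per cell, the lowest of the 10, whose median was 0.40.

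The probe sets of a gene mostly shared a sign on the equal-median scale and less fully per cell. Of the 45 that passed the filter, the 10 used ones included, 43 were below 0 in high-Myc against low-Myc arrays on the equal-median scale, with a median of -0.66. In mid-Myc against low-Myc arrays 41 of 45 were above 0, and in high-Myc against mid-Myc arrays 44 of 45 were below 0. Per cell, 37, 43 and 12 of the 45 were above 0 in the 3 comparisons, in the order high-Myc against low-Myc, mid-Myc against low-Myc and high-Myc against mid-Myc. Among the 35 probe sets not used as the main one, 33, 32 and 34 had the sign of the one used on the equal-median scale, and 24, 33 and 27 on the per-cell scale. Per cell in high-Myc against low-Myc arrays, 0 of the 4 further probe sets of HLA-DMB and 0 of 1 of HLA-DOB had that sign, as had 1 of 3 for HLA-DOA. In high-Myc against mid-Myc arrays per cell, 1 of 3 did for HLA-DPA1 and 1 of 4 for HLA-DQA1.

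Signal near the bright end of the array can be compressed, so bright and dimmer probe sets were read apart. The bright end, taken as the top 1% of human probe sets (above 3384 intensity units, where the brightest read 16546), held 19 of the 45 probe sets. In high-Myc against low-Myc arrays those 19 had a median of -0.61 on the equal-median scale, and the 26 below it had -0.71. Per cell the same medians were 0.10 and 0.34. The probe sets used for HLA-DRA, HLA-DPA1, HLA-DPB1, HLA-DQA1, HLA-DMB and CD74 were at the bright end. The 242 genes with a used probe set there had a median of 0.17 in the same comparison on the equal-median scale, against 0.05 for all genes, and 0.84 per cell, against 0.98. In high-Myc against mid-Myc arrays on the equal-median scale it was -0.045, against 0.02 for all genes. In mid-Myc against low-Myc arrays on that scale it was 0.23, against 0.09 for all genes. HLA-DRA (0.22) and HLA-DPA1 (0.23) lay close to that bright-end median. The part of brightness in the members' values was not tested.

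The probe sets of HLA-DRA disagreed on the 1-hour direction. Its second probe set, also bright, was at -0.35 in high-Myc against low-Myc arrays on the equal-median scale. The third, a dim one with a mean of 75.2 intensity units, read 117 and 136 in low-Myc, 74.0 and 87.9 in mid-Myc and 38.8 and 45.02 in high-Myc arrays. That is -1.45 on the equal-median scale and -0.55 per cell at 24 hours, and -0.49 and -0.28 at 1 hour, so on this probe set HLA-DRA was lower in mid-Myc arrays where the bright ones were higher. CIITA rests mostly on 1 probe set, since its other 2 above the filter averaged 64.5 and 61.6 intensity units and were at -0.32 and -0.23 at 24 hours on the equal-median scale, nearer to 0 than the -0.90 of the one used. Of the 10 probe sets used, 3 end in _s_at (HLA-DRA, HLA-DPA1, HLA-DMB) and 3 in _x_at (HLA-DPB1, HLA-DQA1, CD74), endings by which Affymetrix marks probes shared by several transcripts, so reads of related class II genes cannot be kept fully apart for them.

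**Figure D3:**
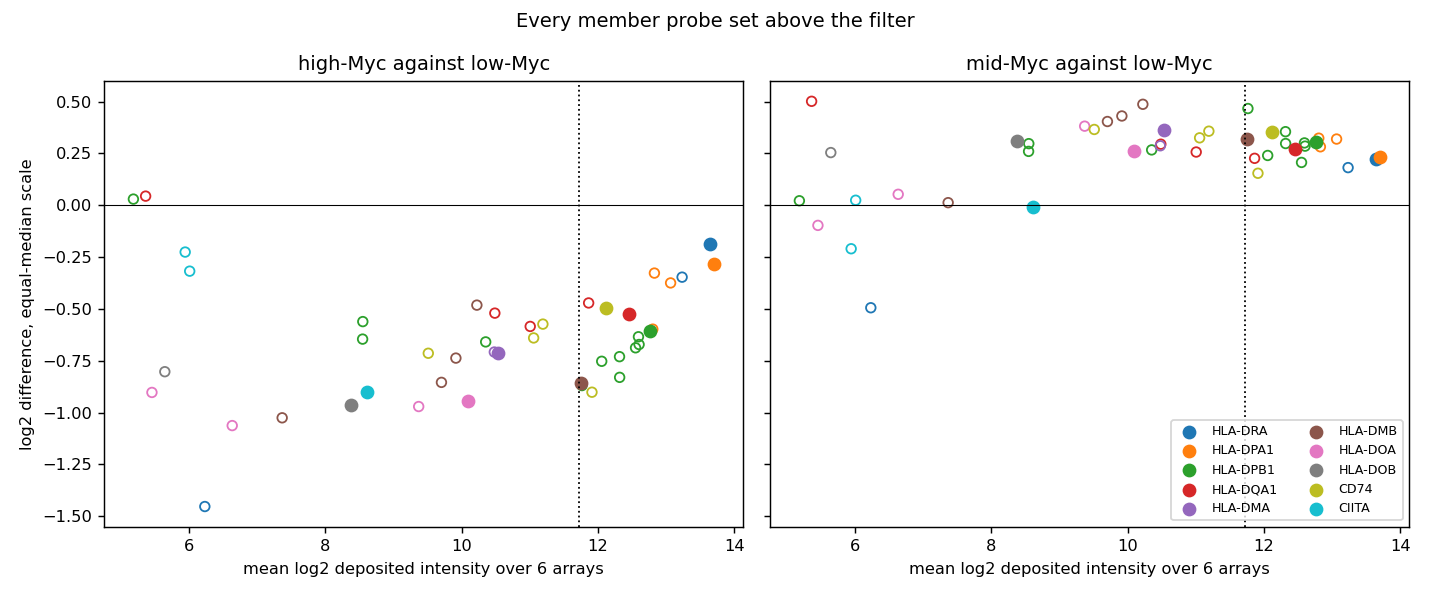
Log2 difference on the equal-median scale (y) of the 45 probe sets of the 10 genes that passed the filter, against their mean log2 intensity (x), for high-Myc against low-Myc (left) and mid-Myc against low-Myc (right). Filled points are the probe sets used and open points the others; the dotted line is the bright end. At 24 hours 43 of 45 lie below 0, and the dim HLA-DRA probe set is lowest at -1.45.

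Other class II loci were read as well. For these and the lists that follow, the equal-median shares of all genes at 24 hours were 26.0% lower and 37.7% higher. At 1 hour they were 25.7% higher and 3.39% lower. List counts were not repeated under the other scalings, on which the members' 1-hour calls rested. Of 9 further class II loci listed, 5 had a probe set with their symbol as its only entry. Of these 3 were tested, HLA-DRB1 and HLA-DRB5 (beta chains of HLA-DR) and HLA-DQB1 (the beta chain of HLA-DQ). All 3 were lower at 24 hours on the equal-median scale, at -0.42, -0.75 and -0.58, and all 3 were higher at 1 hour, at 0.41, 0.34 and 0.32. HLA-DRB1 read 5144 and 4975 in low-Myc, 6076 and 6047 in mid-Myc and 3429.9 and 3433 in high-Myc arrays. Its high-Myc arrays were again the lowest and its mid-Myc arrays the highest. Per cell all 3 were higher at 24 hours and at 1 hour, with medians of 0.38 and 0.50, against 0.98 and 0.30 for all genes.

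The RNAs of the proteins known to hold CIITA at class II promoters did not move together. Of 7 genes of RFX, NF-Y and CREB, 3 were higher and 3 lower in high-Myc against low-Myc arrays on the equal-median scale, with a median of -0.17. RFXAP, a subunit of RFX, rose by 1.01 (SE 0.07, adjusted p = 2.65e-08), with 359.6 and 369.9 intensity units in high-Myc against 207 and 191 in low-Myc arrays. NFYB, a subunit of NF-Y, rose by 0.87, whereas NFYC, another subunit, fell by 0.63 and RFX5, the DNA-binding subunit of RFX, fell by 0.41. In mid-Myc against low-Myc arrays 3 of the 7 were higher and none was lower, RFX5 among them by 0.26. Per cell all 7 were higher in both comparisons, with a 24-hour median of 0.97, next to 0.98 for all genes.

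Co-activator genes and genes of other chromatin factors linked to CIITA were split as well. Of 8 co-activator and chromatin genes, 3 were higher and 4 lower in the same comparison and scale. HDAC2, a histone deacetylase, rose by 1.46 (SE 0.07), with 610.4 and 629 in high-Myc against 260.4 and 237 in low-Myc arrays. SMARCA4, the motor of the BAF remodelling complex, rose by 0.95 and CARM1, an arginine methyltransferase, by 0.84. KAT2B, an acetyltransferase, fell by 1.32 (SE 0.07), with 186 and 192 in high-Myc against 503 and 535 in low-Myc arrays. KAT2B was also lower per cell, at -0.18 (adjusted p = 0.0253), the only one of the 8.

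Of the 10 regulators of the CIITA gene tested, 6 were lower and 1 higher at 24 hours on the equal-median scale, with a median of -0.55. USF1, a helix-loop-helix factor of the interferon-responsive CIITA promoter, fell by 0.96, with 106 and 109 in high-Myc against 213 and 246 in low-Myc arrays. JAK2, a kinase of the interferon gamma receptor, fell by 0.92, IRF2 by 0.80 and IRF1, the interferon-induced factor, by 0.64. The 1 that was higher is PAX5, the B cell identity factor, at 0.26 (adjusted p = 0.0182). At 1 hour 4 of the 10 were higher and none was lower, against 25.7% of all genes higher and 3.39% lower. USF1, JAK2, IRF1, IRF2 and PAX5 were among those not called. Per cell at 1 hour 8 of the 10 were higher, against 62.7% of all genes, with a median of 0.38 against 0.30. Among those 8, IRF4 rose by 0.97 and PRDM1 by 0.84. Per cell 8 of the 10 were higher at 24 hours, with a median of 0.49, against 91.0% of all genes higher and a median of 0.98.

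Of 10 lysosomal genes tested, most of them proteases that cut antigen or CD74, 6 were lower and 3 higher at 24 hours on the equal-median scale. CTSB, cathepsin B, fell by 1.12 (SE 0.07), with 492 and 470.4 in high-Myc against 1215 and 1093 in low-Myc arrays. CTSS, the cathepsin that makes the last cut in CD74 in B cells, fell by 0.43 (SE 0.06), which was added for its role and not for its size. CTSZ fell by 0.83 and SPPL2A, the membrane protease that clears the CD74 stub, by 0.76. CTSC, which activates granule proteases, rose by 0.96, with 727 and 731 in high-Myc against 408 and 416 in low-Myc arrays. At 1 hour 8 of the 10 were higher and none was lower, with a median of 0.29. Of all genes 25.7% were higher and 3.39% lower there, with a median of 0.09.

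Among 6 genes of class II turnover and trafficking, 4 were lower and 1 higher at 24 hours on the equal-median scale. The tetraspanins CD82, CD9 and CD63, which sit with class II in membranes, fell by 1.00, 0.72 and 0.46. CD83, which shields class II from ubiquitin-driven removal, fell by 0.63 at 24 hours but rose by 0.97 (SE 0.06) at 1 hour. Its intensities were 697 and 683 in low-Myc, 1201 and 1234 in mid-Myc and 396 and 411 in high-Myc arrays. The partners of CD74 as a surface receptor also included a gene that rose at 1 hour. CXCR4, a chemokine receptor, rose by 1.01 at 1 hour and fell by 1.68 at 24 hours, and it was lower per cell too at 24 hours (-0.56, adjusted p = 2.36e-05). MIF, the ligand of CD74, rose by 1.65 at 24 hours, with 9124 and 8980.5 in high-Myc against 3227 and 3113 in low-Myc arrays, and CD44, the co-receptor of CD74, fell by 0.65.

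Genes that share the class II region but are no class II chains were divided. Of 17 tested, 5 were higher and 6 lower at 24 hours on the equal-median scale, with a median of -0.089, near that of all genes. PFDN6, a subunit of the prefoldin chaperone, rose by 1.83 and WDR46, a nucleolar protein, by 1.51. HSD17B8, a mitochondrial dehydrogenase, rose by 1.48, while RGL2, a Ral exchange factor, fell by 1.49. The peptide transporter genes TAP2 and TAP1, which serve MHC class I and lie among the class II loci, fell by 0.69 and 0.30, and they were added for their place and not for their size. The immunoproteasome gene PSMB9 fell by 0.42 and PSMB8 was not called (0.03, adjusted p = 0.581).

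**Figure D4:**
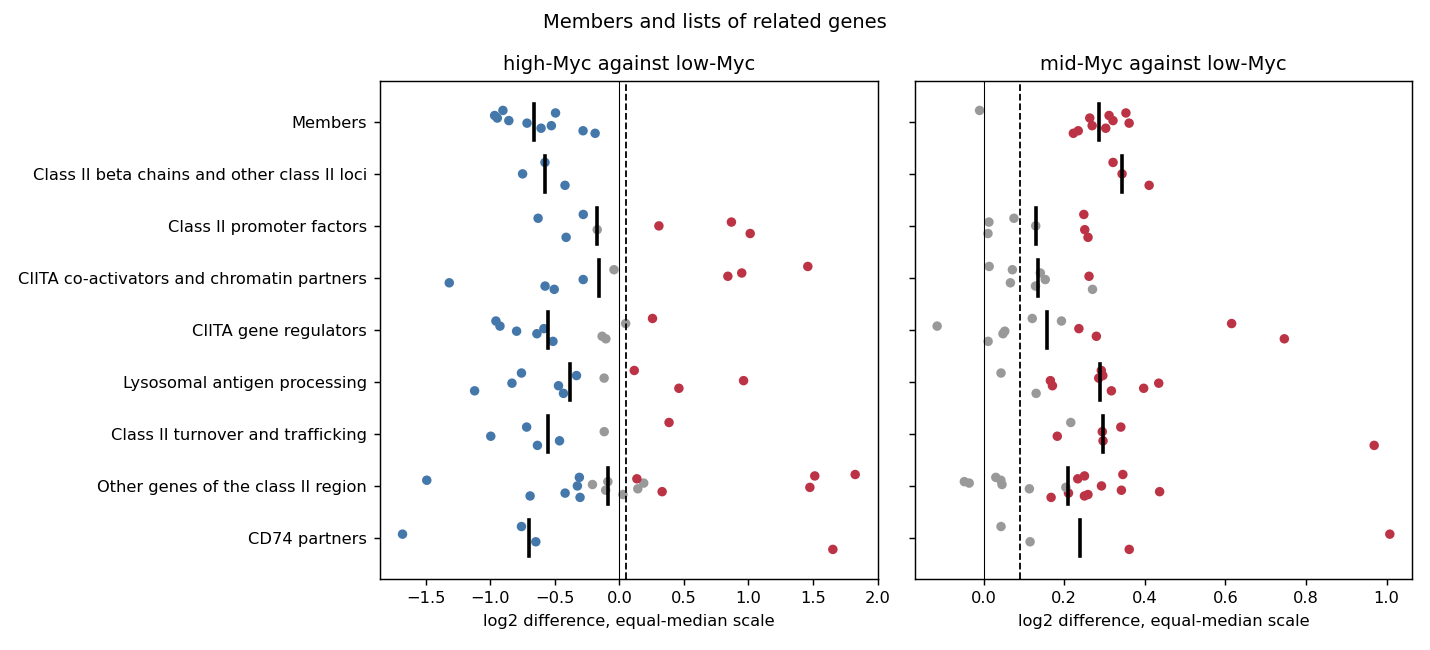
Log2 difference on the equal-median scale of the 10 genes and of the genes of 8 lists of related genes, in high-Myc against low-Myc (left) and mid-Myc against low-Myc (right). Each point is 1 gene, red higher and blue lower at an adjusted p under 0.05, grey not called; the bar is the median of the list and the dashed line that of all genes (0.05 and 0.09). The 10 genes lie together below 0 at 24 hours, whereas the promoter factors and the other genes of the class II region spread to both sides.

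Genes used as markers of B cells and of other cell types were read as well, although all arrays are of 1 B cell line. Of 9 B cell markers tested, 8 were lower and 1 higher at 24 hours on the equal-median scale, with a median of -1.06, beside -0.66 for the 10 genes and 0.05 for all genes. CD79B, a signalling chain of the B cell receptor, was 2.82-fold lower. On the log2 scale CD79A, its partner chain, fell by 1.20, CD37, a tetraspanin, by 1.40, EBF1, a B cell transcription factor, by 1.09 and MS4A1, the antigen CD20, by 0.28. PAX5 was the 1 higher, at 0.26. Per cell, 4 of the 9 were higher and 2 lower at 24 hours, against 91.0% of all genes higher and 2.47% lower. The 2 lower were CD79B (-0.58) and CD37 (-0.26). The 4 higher were PAX5 (1.37), BLK (0.44), MS4A1 (0.33) and CD22 (0.25). At 1 hour the B cell markers were higher much as the 10 genes were. On the equal-median scale 8 of the 9 were higher and 0 lower, against 25.7% and 3.39% of all genes. Their median was 0.30, beside 0.29 for the 10 genes and 0.09 for all genes. Per cell at 1 hour all 9 were higher, against 62.7% of all genes, with a median of 0.49 beside 0.40 and 0.30. The summed intensity of 12 monocyte, macrophage and dendritic cell markers was 3162 to 3191 in low-Myc, 3009.6 to 3100.1 in mid-Myc and 1236 to 1266 in high-Myc arrays. CD14, FCGR1A, FCER1A, CLEC9A, CLEC10A and CD163 were below the filter. Of the 6 tested, 4 were lower and none higher at 24 hours on the equal-median scale, and per cell 3 were lower and 1 higher. On the equal-median scale LYZ fell by 1.49, CD1C by 1.48, MS4A7 by 1.37 and CD68 by 1.03, while CSF1R (-0.27) and ITGAX (0.0065) were not called. T and NK cell markers summed to 381 to 385 in low-Myc, 335 to 363 in mid-Myc and 269 to 284 in high-Myc arrays. CD3D, CD8A, TRAT1 and KLRD1 were below the filter. Of the 5 tested, 1 was lower at 24 hours on the equal-median scale, CD3G (-1.02). CD3G averaged 42.7 intensity units, near the filter of 33.8. Plasma cell markers, a fate in which CIITA is known to be shut off, summed to 6962 to 7059.8 in low-Myc, 7627 to 7712 in mid-Myc and 5666 to 5799 in high-Myc arrays. JCHAIN, the brightest of them at a mean of 4587 intensity units, weighs most in that sum. On the equal-median scale 2 of 7 were higher and 2 lower at 24 hours. Per cell all 7 were higher, against 91.0% of all genes, with a median of 1.03 against 0.98. The highest were MZB1 (1.99) and XBP1 (1.7), and the lowest was JCHAIN (0.41). The part of the markers in the class II values was not tested.

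The genes whose profile over the 6 arrays was most like that of CIITA, by the root-mean-square distance of centred log2 values on the equal-median scale, were RHOQ (0.027), REL (0.028), MLLT11 (0.030), IQGAP2 (0.031) and NFAT5 (0.035). REL is a subunit of NF-kappaB and NFAT5 a factor of the osmotic response. For REL the intensities were 748 and 765 in low-Myc, 684 and 693 in mid-Myc and 386 and 362 in high-Myc arrays. Like CIITA, it was little changed at 1 hour (0.01 on the equal-median scale) and lower at 24 hours (-0.88). Most like the median profile of the 9 other genes were ISG15 (0.020), KDM6A (0.024), ALDH16A1 (0.027), DAZAP2 (0.030) and NEU1 (0.032). ISG15, an interferon-induced ubiquitin-like protein, read 8802 and 8702 in low-Myc, 9929 and 9399 in mid-Myc and 5393 and 5188 in high-Myc arrays. It was at 0.29 at 1 hour and at -0.59 at 24 hours, in the same order of groups as the class II chains. These were chosen for their likeness over 6 arrays in 3 groups, so the values describe them and are no test.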

How the data were processed

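Total RNA of 6 P493-6 cultures was read on 1-colour Affymetrix arrays. The deposited intensity of each probe set is linear and comes from MAS5 as run by the authors, per the submitters' processing notes, with no version or scaling target stated. There were 49495 probe sets: 49293 human, 100 ERCC and 102 other controls. Of the human ones 45278 carried 1 gene symbol, 1333 more than 1 symbol entry and 2682 none listed. Some of the 1333 repeat the same symbol, and all of them were left out. Of those with 1 symbol, 45214 were updated through their identifier. Without detection calls, dim values cannot be told from background. Precision is limited by the number of arrays.

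Values were taken to log2. The per-cell scale subtracts from each array a robust loess fit to its ERCC probe sets (span 0.7, degree 1), read at each probe set's mean. The equal-median scale centres on the human median. A gene was tested if its brightest probe set averaged above the 40th percentile over human ones. Tests used limma 3.58.1 (R 4.3.3) with a variance trend, two-sided, in 1 fit; the steps were tested on simulated data. Named genes were all members, MYC, up to 4 called genes of each list of related genes (not of the marker lists) with the largest equal-median change at 24 hours, and the 5 most alike; any other gene named was chosen after its values were seen. The members and lists were chosen with earlier results of these data known. Replicate numbers did not pair the samples (correlations of deviations -0.0022, -0.0034 and 0.0022). Alternatives changed the filter, the probe set, the pseudocount (16), the variance model, the replicate block, the groups, each array and the scaling. Further probe sets were read as a check, and were averaged with the one used only in an alternative.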

Additional observations from a re-analysis of the deposited data

How the results depend on the processing

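Of 1014 values of single members under the alternatives, 955 kept direction and side of the threshold, 35 lost their call, 2 gained one and 22 turned direction. The equal-median falls in high-Myc against low-Myc and against mid-Myc arrays kept 10 lower genes under every alternative that tested 10. Signal over background limits the dim probe sets, and causes were not tested unless the construction shows them. The replicate number as a replicate block left the counts at 9, 10 and 1 higher per cell (0, 0 and 7 lower) and at 0, 9 and 0 higher on the equal-median scale (10, 0 and 10 lower), in the order high-Myc against low-Myc, mid-Myc against low-Myc and high-Myc against mid-Myc, and changed no other call.

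Leaving out 1 array gave 7 to 9 genes higher per cell in high-Myc against low-Myc, 9 to 10 in mid-Myc against low-Myc, and 7 lower with 1 higher in high-Myc against mid-Myc; on the equal-median scale the counts stayed at 10 lower, 9 higher and 10 lower. In high-Myc against mid-Myc per cell, 1 ERCC factor per array gave 3 higher and 4 lower, span 0.4 gave 0 higher, and the brightest probe set below the bright end, an alternative chosen after seeing the data that leaves 9 genes, gave 0 higher and 4 lower. That last choice also gave 1 lower in high-Myc against low-Myc per cell and 1 lower in mid-Myc against low-Myc on the equal-median scale, each HLA-DRA through its dim probe set. The 1-hour equal-median count was 1 with quantile normalization, 5 as deposited and 2 with cyclic loess.

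Of the 35 lost calls, 17 were equal-median ones at 1 hour and 9 were per-cell ones in high-Myc against low-Myc arrays. Beside those printed with the results, HLA-DPB1 there was not called without the variance trend (0.10, adjusted p = 0.103). Per cell in high-Myc against mid-Myc arrays HLA-DQA1 was not called with the mean of all probe sets (-0.068, adjusted p = 0.172) or without the trend (-0.12, adjusted p = 0.0535), nor HLA-DRA with span 0.4 (0.022, adjusted p = 0.493).

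Turned directions were as follows. With the mean of all probe sets, HLA-DMB was at 0.25 in high-Myc against low-Myc per cell, HLA-DRA at -0.0136 and HLA-DPA1 at -0.0703 in high-Myc against mid-Myc per cell, and HLA-DRA at -0.030 in mid-Myc against low-Myc on the equal-median scale. With 1 ERCC factor HLA-DMB was at 0.30 in high-Myc against low-Myc, and HLA-DPB1, HLA-DQA1 and CD74 at 0.020, 0.13 and 0.082 in high-Myc against mid-Myc. With span 0.4 HLA-DMB was at 0.017 in high-Myc against low-Myc and HLA-DPA1 at -0.095 in high-Myc against mid-Myc. Over the arrays left out in turn, HLA-DMB ran between -0.0395 and 0.0143 in high-Myc against low-Myc per cell (above 0 without high-Myc replicate 1). CIITA ran between -0.0371 and 0.0590 in high-Myc against mid-Myc per cell (below 0 without high-Myc replicate 1, and at -0.0227 without mid-Myc replicate 2), and between -0.0282 and 0.0084 in mid-Myc against low-Myc on the equal-median scale (above 0 without mid-Myc replicate 2). With the brightest probe set below the bright end, HLA-DMB was at 0.58 and HLA-DRA at -0.55 in high-Myc against low-Myc, HLA-DRA at -0.28 in mid-Myc against low-Myc and -0.27 in high-Myc against mid-Myc per cell, and at -0.49 in mid-Myc against low-Myc on the equal-median scale. In that last comparison HLA-DRA was at -0.010 with quantile normalization and -0.034 with cyclic loess, and HLA-DPA1 at -0.023 with cyclic loess. Some turned values were called in their new direction by the limma fit. HLA-DMB was called higher at 0.25 (adjusted p = 0.000118), 0.30 (4.94e-05) and 0.58 (7.08e-06), and HLA-DQA1 at 0.13 (0.0118). HLA-DPA1 was called lower at -0.0703 (0.0304) and -0.095 (0.0121), and HLA-DRA at -0.55 (0.00349) and -0.49 (0.0109).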

Other observations

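Probe sets with more than 1 symbol entry were left out of the comparisons above. Some of them repeat 1 symbol. One that lists only HLA-DRB4 was at -0.71 in high-Myc against low-Myc and 0.37 in mid-Myc against low-Myc arrays on the equal-median scale. Some of those that name different genes read as follows. A bright probe set of HLA-DRB1, HLA-DRB3, HLA-DRB4 and HLA-DRB5 together had 7398 and 7593 intensity units in low-Myc, 8916 and 8869.8 in mid-Myc and 4900.5 and 5170.2 in high-Myc arrays. Its difference on the equal-median scale was -0.44 in high-Myc against low-Myc and 0.40 in mid-Myc against low-Myc arrays, with the arrays in the same order as those of HLA-DRA. A probe set shared by HLA-DQA1 and HLA-DRA was at -0.64 and 0.32 in the same comparisons. A dim one shared by HLA-DOB and its neighbour TAP2 was at -0.74 and 0.28.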
